A study of Mus musculus with 2 samples.

Results

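Mr1 and 9 other genes of the non-classical and MHC class I-like family (Cd1d1, Fcgrt, Hfe, H2-M3, H2-T22, H2-T23, H2-Q4, H2-Q6 and H2-Q7) were followed across the cell classes of the mouse hippocampus. They were chosen by name and not by a threshold on any expression value, 10 of the 31053 genes in the deposited tables. The hippocampi came from untreated 7-month-old Mr1+/+ and Mr1-/- mice, and each genotype gave 1 droplet library made with a 5' gene expression kit. Cells were released with a neuron isolation kit, and live nucleated cells (DAPI-negative, Draq5-positive) were sorted. The number of mice behind a library, their strain background beyond the Mr1 genotype and the deleted stretch of Mr1 are unknown from the labels.

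Class I molecules are heavy chains that fold with beta-2 microglobulin and display ligands at the cell surface. The classical heavy chains show peptides to CD8 T cells, whereas the non-classical ones are less variable and serve narrower tasks. Mr1 displays small metabolites of riboflavin synthesis to MAIT cells (mucosal-associated invariant T cells), Cd1d1 displays lipids to natural killer T cells, and H2-M3 displays formylated peptides of the kind bacteria make. H2-T23 (Qa-1) binds signal peptides and is read by the Cd94/Nkg2 receptors of natural killer cells. H2-Q6 and H2-Q7 encode Qa-2 molecules, and H2-Q4 lies in the same gene block. Fcgrt and Hfe have the class I fold but display no antigen: Fcgrt carries IgG and albumin through cells, and Hfe takes part in iron sensing with the transferrin receptor. Many class I genes are induced by interferon, and in the brain endothelial cells and microglia are known for the highest class I levels.

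After filtering, 5992 Mr1+/+ cells with 21462453 unique molecular identifiers (UMIs, counts of captured molecules) and 5107 Mr1-/- cells with 17334982 UMIs were sorted into classes by marker genes. Each "-like" class carries a cell type's markers and nothing more is known of it. In the 8 classes compared, the Mr1+/+ and Mr1-/- libraries held 1307 and 1435 endothelial-like cells, 1436 and 957 oligodendrocyte-like cells, 851 and 850 mural-like cells (pericytes and smooth muscle), and 956 and 477 astrocyte-like cells. They also held 653 and 747 microglia-like, 274 and 167 neuron-like, 59 and 72 ependymal-like and 65 and 54 neuroblast-like cells, although the series title names non-neuronal cells. Precursor-like and fibroblast-like cells were too few to compare, and 320 and 283 cells in unnamed clusters stayed out. Levels are CPM, a gene's UMIs scaled by the UMI total of its class and library in the usual way, and ratios are Mr1-/- over Mr1+/+. Ranges in brackets are exact 95% intervals that cover counting error only. No replicate exists, so no test was made, and differences between mice, dissections, sorts and preparations cannot be told apart from genotype. Levels are ordered between classes within a gene and never between genes, since a UMI level also depends on capture and on reads shared with near copies.

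The 6 H2 genes lie within 1894868 bases of chromosome 17 in mm10 (GENCODE M21). H2-Q4 (35379617-35385290), H2-Q6 (35424850-35430055), H2-Q7 (35439155-35443773) and H2-M3 (37270220-37274484) are on the plus strand, and H2-T23 (36029773-36032855) and H2-T22 (36037128-36042747) are on the minus strand. The other 4 are on minus strands: Mr1 at 155127277-155146814 of chromosome 1, Cd1d1 at 86995834-86999441 of chromosome 3, Fcgrt at 45092990-45103851 of chromosome 7 and Hfe at 23702034-23710854 of chromosome 13. Near copies bear on how far a count belongs to one gene. Of all 50-base words in the first 300 bases of a gene's transcripts, the end that a 5' kit reads, 47.2% in H2-Q7 also occurred in another gene (38.0% in H2-Q6), 41.6% in H2-T22 (mainly H2-T10), 25.7% in H2-Q6 (25.4% in H2-Q5), 13.4% in H2-T23, 12.3% in Cd1d1 (Cd1d2) and 3.0% in H2-Q4 (H2-K1). The share was 0 in Mr1, Fcgrt, Hfe and H2-M3, so the counts of H2-Q6, H2-Q7 and H2-T22 are the least certain as to gene. No gene in the deposited tables carries the symbol Cd1d2, H2-T10 or H2-Q5, so how reads from these copies were counted is unknown. Annotated genes on the opposite strand overlap Fcgrt (Gm45669), H2-T22 and H2-T23 (A930015D03Rik) and H2-Q4 (Gm11131), and no source at hand says whether the counting used strand.

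The promoters of the H2 genes are shown because the H2-Q genes were the members that stood higher in endothelial-like cells of the Mr1-/- library, and because class I promoters carry a known block of elements. RefSeq promoters (GRCm38.p6) were matched for 9 of the 10 genes, all but Cd1d1. The stretches below run 5' to 3' on the gene's strand, from 195 to 16 bases before the RefSeq start. Capitals mark matches, on either strand, to an interferon-stimulated response element core (TTTCACTT), a kappa B site (GGGGATT), an X box (TGATGAC, bound by the RFX complex, with which the class I activator Nlrc5 works) and a CCAAT box (CCAAT). These letters were picked after the sequences had been read, so a match is a description of the sequence. Mr1 is shown as a member with no match to any of them.
H2-Q4 (chr17:35379422-35379601, plus strand): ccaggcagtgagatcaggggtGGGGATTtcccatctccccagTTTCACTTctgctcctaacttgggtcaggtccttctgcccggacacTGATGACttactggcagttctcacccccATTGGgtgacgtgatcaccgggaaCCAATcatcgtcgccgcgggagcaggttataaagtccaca
H2-Q6 (chr17:35424655-35424834, plus strand): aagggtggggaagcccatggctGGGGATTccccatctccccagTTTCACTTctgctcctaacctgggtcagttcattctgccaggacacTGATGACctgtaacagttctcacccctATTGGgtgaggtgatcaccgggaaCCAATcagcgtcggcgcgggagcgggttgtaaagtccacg
H2-Q7 (chr17:35438960-35439139, plus strand): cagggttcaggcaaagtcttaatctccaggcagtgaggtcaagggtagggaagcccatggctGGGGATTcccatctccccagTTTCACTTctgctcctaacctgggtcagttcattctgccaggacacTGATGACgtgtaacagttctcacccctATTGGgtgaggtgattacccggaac
H2-T22 (chr17:36042758-36042937, minus strand): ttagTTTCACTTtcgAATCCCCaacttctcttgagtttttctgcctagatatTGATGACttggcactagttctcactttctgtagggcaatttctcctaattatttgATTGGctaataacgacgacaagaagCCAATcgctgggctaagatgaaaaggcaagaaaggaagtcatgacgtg
H2-M3 (chr17:37270039-37270218, plus strand): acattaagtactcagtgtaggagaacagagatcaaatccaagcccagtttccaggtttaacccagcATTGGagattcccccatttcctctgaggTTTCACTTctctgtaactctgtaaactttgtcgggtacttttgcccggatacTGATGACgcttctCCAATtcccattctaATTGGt
Mr1 (chr1:155146830-155147009, minus strand): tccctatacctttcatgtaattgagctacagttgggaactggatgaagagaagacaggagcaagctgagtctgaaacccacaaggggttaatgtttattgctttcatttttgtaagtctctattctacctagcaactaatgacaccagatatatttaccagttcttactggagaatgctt
The 3 H2-Q stretches had the same order from 5' to 3': the kappa B letters, the interferon element, the X box, a reversed CCAAT box and a forward one. In H2-Q4 these began 174, 153, 107, 79 and 55 bases before the start and in H2-Q6 173, 152, 106, 79 and 55 bases before it. In H2-Q7 they began 133, 113, 67, 40 and 16 bases before the start, and the last runs past the printed end. H2-T22 had the interferon element 191 bases and the X box 143 bases before its start, with the kappa B letters reversed between them, and H2-M3 had no kappa B match in its 250 upstream bases. Among the 32851 RefSeq promoters of mouse, the interferon element letters stood in the 250 upstream bases of 1.36%, the kappa B letters in 2.76%, the X box letters in 2.69% and CCAAT in 33.8%. The interferon element, X box and CCAAT box stood together in 11 promoters (0.0335%), of which 5 belong to the H2 genes printed above. The classical H2-D1 is also among the 11. Since the letters were picked after these sequences had been read, the share is no measure of enrichment. Of the other members, H2-T23 had a CCAAT match only, and Mr1, Fcgrt and Hfe had no match to the 4 motifs in this window.

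Mr1 itself was counted 130 times in the Mr1+/+ library and 2 times in the Mr1-/- library, 6.06 and 0.115 CPM, as the genotype labels say. In Mr1+/+ cells its level was 17.4 CPM in astrocyte-like cells (13.1 to 22.8, 53 UMIs), 7.89 in microglia-like cells (5.32 to 11.3, 30 UMIs), 7.75 in ependymal-like cells (3 UMIs), 5.64 in mural-like cells (14 UMIs), 5.05 in endothelial-like cells (17 UMIs) and 1.60 in oligodendrocyte-like cells (10 UMIs). No Mr1 UMI was seen in 274 neuron-like or 65 neuroblast-like Mr1+/+ cells, with upper limits of 3.48 and 14.3 CPM. Both limits lie above the oligodendrocyte-like level, so these cells cannot be said to lack Mr1. The astrocyte-like level was 2.21 times the microglia-like one (1.39 to 3.58), and the endothelial-like level was 3.16 times the oligodendrocyte-like one (1.37 to 7.72). The levels of microglia-like, ependymal-like, mural-like and endothelial-like cells did not differ beyond counting error between neighbours in this order. The Mr1 UMIs of astrocyte-like cells came from 50 of 956 cells (5.23%), whose median depth was 3120.5 UMIs, against 0 of 477 astrocyte-like cells of the Mr1-/- library, whose median depth was 2994 UMIs.

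The Mr1-/- library had 0 Mr1 UMIs in astrocyte-like, microglia-like, mural-like, oligodendrocyte-like, ependymal-like and neuron-like cells. Against a limit of 3 counts per class and library, this is at least 10-fold lower in microglia-like cells, at least 8.51-fold lower in astrocyte-like cells, at least 4.16-fold lower in mural-like cells and at least 2.23-fold lower in oligodendrocyte-like cells. These bounds leave out the counting error of the Mr1+/+ UMIs, and the exact interval of the ratio, which includes it, reaches 0.126, 0.15, 0.338 and 0.667 in these classes. Endothelial-like cells had 1 UMI against 17, a ratio of 0.0573 (0.00137 to 0.366), and the other UMI was in a neuroblast-like cell. The limits differ with the number of Mr1+/+ UMIs, so they rank no class by how complete the loss was. Mr1 reached the 50 UMIs set for a comparison in astrocyte-like cells alone.

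**Figure D1:**
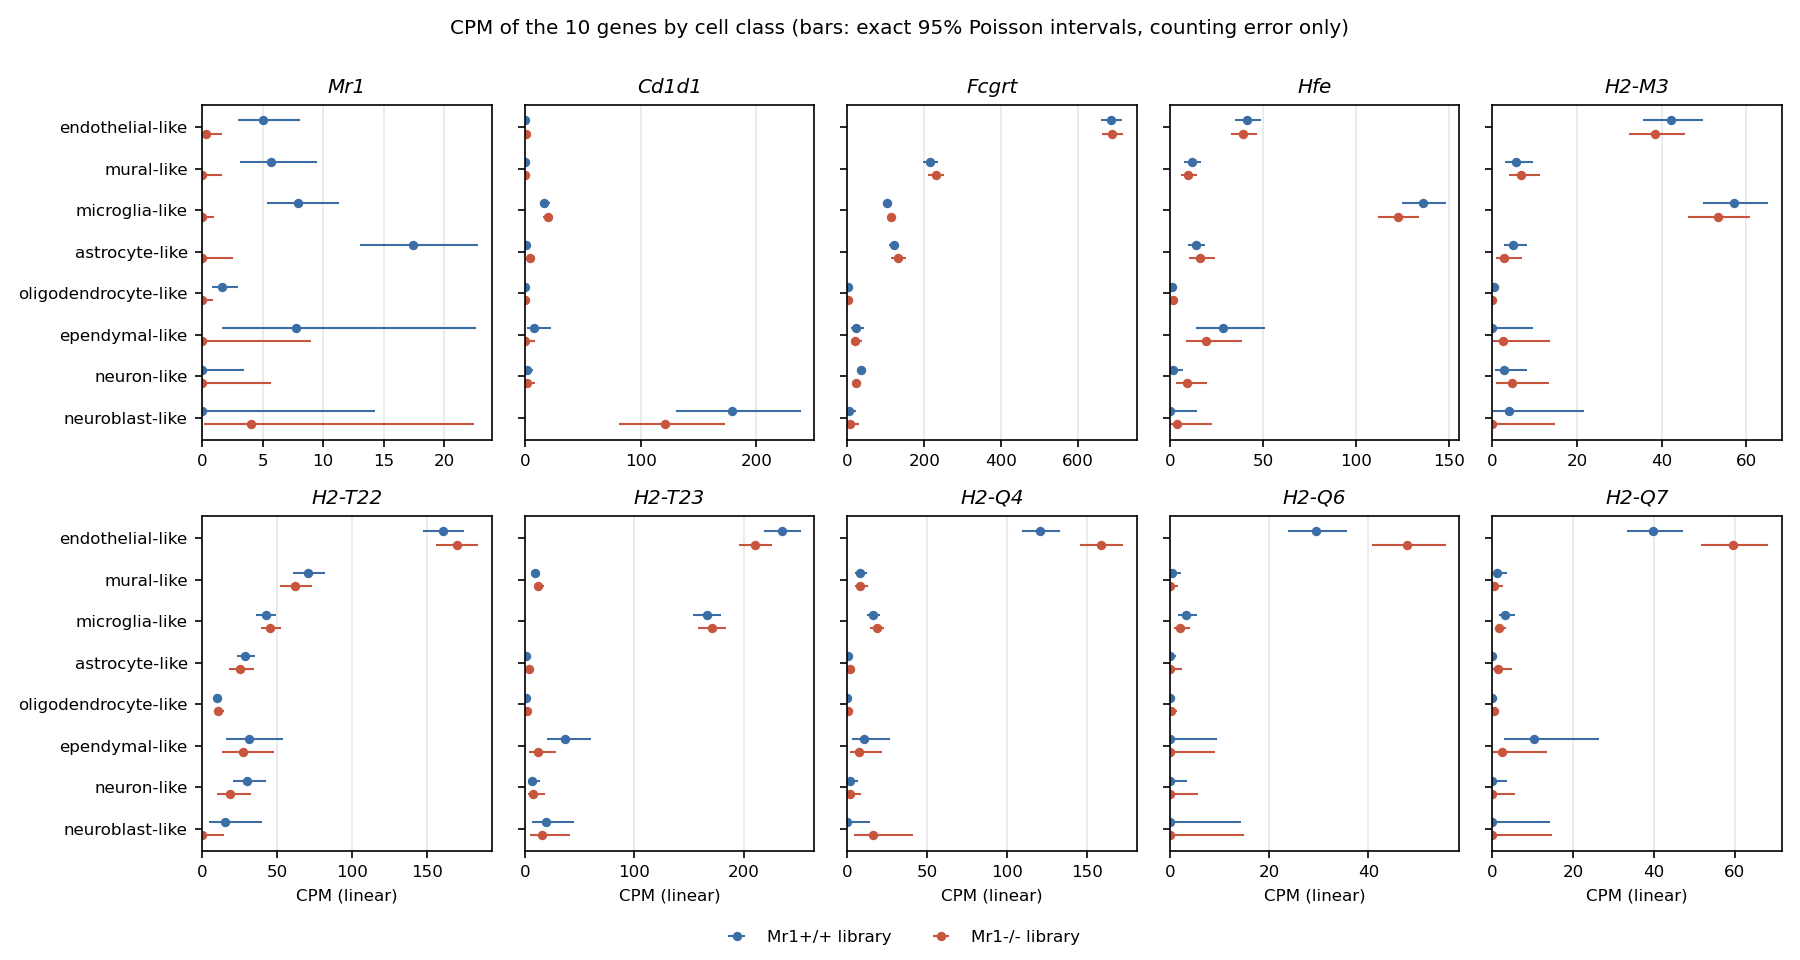
Each panel plots 1 gene's CPM (linear axis) in the 8 cell classes, with a point for the Mr1+/+ and a point for the Mr1-/- library and exact 95% Poisson intervals as bars. Mr1 points of the Mr1-/- library lie at or near 0 in all classes but neuroblast-like cells, the smallest class of that library. There 1 UMI puts the point above the Mr1+/+ one, with a wide interval. Cd1d1 is highest in neuroblast-like cells (179 and 121 CPM) and Hfe and H2-M3 in microglia-like cells. Fcgrt, H2-T22, H2-T23 and the H2-Q genes are highest in endothelial-like cells.

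Cd1d1, the lipid-presenting member, was at its highest in neuroblast-like cells, the doublecortin-type young neurons of the data. These held 46 UMIs in the Mr1+/+ library, or 179 CPM (131 to 238), and 30 in the Mr1-/- library, or 121 CPM (81.5 to 172). A Cd1d1 UMI was present in 50.8% of the 65 Mr1+/+ and 42.6% of the 54 Mr1-/- neuroblast-like cells, whose median depths were 3852 and 3212.5 UMIs. In mural-like cells, with median depths of 2560 and 2300.5 UMIs, no cell of either library had one. Microglia-like cells came next with 64 and 78 UMIs, 16.8 and 19.7 CPM, so the neuroblast-like level was 11 times theirs in the Mr1+/+ library (7.10 to 15.7) and 6.13 times in the Mr1-/- library (3.89 to 9.46). Both ratios between genotypes spanned 1, at 0.677 in neuroblast-like cells (0.412 to 1.10) and 1.17 in microglia-like cells (0.830 to 1.65). Cd1d1 was the 1 member with 50 UMIs in neuroblast-like cells. It passed the mark used here as a call (25% higher, or a ratio of 0.8 or less), as did 43.6% of all genes tested there, and with cells thinned to equal depth its ratio was 1.09. Oligodendrocyte markers summed to 2123 CPM in the Mr1+/+ and 92.6 CPM in the Mr1-/- neuroblast-like cells, and their part in this comparison was not tested.

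Fcgrt, the IgG and albumin receptor, was an endothelial transcript in both libraries. Endothelial-like cells gave 2314 and 2385 UMIs, 687 and 690 CPM, in 76.5% and 74.5% of cells at median depths of 2529 and 2335 UMIs. The ratio was 1.0 (0.948 to 1.06), the narrowest interval of any member in any class. Oligodendrocyte-like cells, although deeper at medians of 4354 and 4181 UMIs, had an Fcgrt UMI in 0.557% and 0.627% of cells. Mural-like cells stood at 216 and 231 CPM (ratio 1.07, 0.945 to 1.21), astrocyte-like cells at 121 and 132 CPM (1.09, 0.908 to 1.30) and microglia-like cells at 104 and 114 CPM (1.09), and each interval held 1. The endothelial-like level was 3.18 times the mural-like one in the Mr1+/+ library (2.90 to 3.5) and 2.99 times in the Mr1-/- library. Neuron-like cells, in which Fcgrt alone among the members reached 50 UMIs, gave 38 and 14 UMIs, 35.9 and 21.5 CPM, a ratio of 0.601 (0.301 to 1.13). This passed the mark, as did 29.5% of the genes tested there, and its interval holds 1. In neuron-like cells microglia markers summed to 252 and 66.2 CPM and oligodendrocyte markers to 138 and 514 CPM, and their part in this ratio was not tested.

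Hfe was at its highest in microglia-like cells, with 516 and 484 UMIs, 136 and 122 CPM, and a ratio of 0.9 (0.794 to 1.02). A UMI was present in 47.3% and 40.8% of these cells at median depths of 4245 and 3812 UMIs. Endothelial-like cells stood at 41.6 and 39.3 CPM (0.946, 0.742 to 1.21) and mural-like cells at 11.7 and 9.50 CPM, while oligodendrocyte-like cells stood at 1.12 and 1.43 CPM. The iron partners of Hfe had ratios of their own. Tfrc, the transferrin receptor that binds Hfe, stood at 129 and 180 CPM in endothelial-like cells (436 and 621 UMIs), a ratio of 1.39 (1.23 to 1.57), with Hfe at 0.946 in the same cells. The Tfrc ratio passed the mark, as did 20% of the genes tested there. Tfrc is also one of the capillary markers used here, and the part of endothelial makeup in its ratio was not tested. Slc40a1, the iron exporter ferroportin, stood at 326 and 357 CPM in endothelial-like cells (ratio 1.09, 1.01 to 1.19) and at 203 and 175 CPM in microglia-like cells (0.861, 0.775 to 0.955).

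H2-M3 was the H2 gene with its highest level in microglia-like cells, 57.1 and 53.3 CPM from 217 and 211 UMIs (ratio 0.933, 0.769 to 1.13). Endothelial-like cells followed at 42.1 and 38.5 CPM (142 and 133 UMIs; ratio 0.912, 0.715 to 1.16). The microglia-like level was 1.35 times the endothelial-like one in the Mr1+/+ library (1.09 to 1.69) and 1.39 times in the Mr1-/- library (1.11 to 1.73), so this order held beyond counting error in both.

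H2-T22 and H2-T23 were highest in endothelial-like cells, where the ratio interval held 1 for H2-T22 and lay below 1 for H2-T23. H2-T22 gave 542 and 588 UMIs there, 161 and 170 CPM (ratio 1.06, 0.939 to 1.19). It stood at 70.6 and 61.9 CPM in mural-like cells (0.878, 0.697 to 1.10), 42.4 and 45.5 CPM in microglia-like cells (1.07, 0.863 to 1.34) and 9.74 and 10.7 CPM in oligodendrocyte-like cells. H2-T23, the Qa-1 heavy chain, gave 790 and 726 UMIs in endothelial-like cells, 234 CPM (218 to 251) and 210 CPM (195 to 226), a ratio of 0.895 (0.808 to 0.991). Microglia-like cells stood at 166 and 170 CPM (1.03, 0.921 to 1.15), with a UMI in 53.1% of cells in both libraries. In ependymal-like cells H2-T23 gave 14 and 5 UMIs, a ratio of 0.338 (0.0953 to 0.993), and 13 of the 14 UMIs lay in the 5 cells with the most. The Mr1+/+ value there rests on those few cells.

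The 3 H2-Q genes were higher in endothelial-like cells of the Mr1-/- library. Of the other H2 genes printed above, H2-T22 holds all 4 motifs and H2-M3 holds 3 of them, at endothelial-like ratios of 1.06 and 0.912. The part of the promoter letters in these ratios was not tested. H2-Q4 gave 406 UMIs in the Mr1+/+ and 548 in the Mr1-/- library, 121 CPM (109 to 133) and 158 CPM (145 to 172), a ratio of 1.31 (1.15 to 1.5). H2-Q6 gave 99 and 165 UMIs, 29.4 CPM (23.9 to 35.8) and 47.7 CPM (40.7 to 55.6), a ratio of 1.62 (1.26 to 2.10). H2-Q7 gave 134 and 206 UMIs, 39.8 CPM (33.3 to 47.1) and 59.6 CPM (51.7 to 68.3), a ratio of 1.5 (1.2 to 1.88). Of the 8 members with 50 UMIs in endothelial-like cells, these 3 were called higher and none lower, where 11% of the 8884 genes tested were called higher and 20% were called either way. Since H2-Q6 and H2-Q7 share many 50-base words, their values are not independent of each other.

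The UMIs of the H2-Q genes were spread over many endothelial-like cells. H2-Q4 was seen in 25.6% and 29.3% of them (335 and 420 cells, at most 4 and 5 UMIs in a cell), H2-Q6 in 6.58% and 9.76% (86 and 140 cells) and H2-Q7 in 8.72% and 11.8% (114 and 169 cells). The 5 cells with the most H2-Q4 held 16 and 20 of its UMIs. No H2-Q4 UMI was seen in the 1436 oligodendrocyte-like cells of the Mr1+/+ library, and 2 were seen in the Mr1-/- library. A UMI of any of the 6 H2 genes was present in 72.3% of endothelial-like cells in both libraries. The shares were 70.6% and 70.3% of microglia-like and 4.53% and 5.85% of oligodendrocyte-like cells. Microglia-like cells were deeper, at medians of 4245 and 3812 UMIs against 2529 and 2335 in endothelial-like cells. With cells thinned to equal depth, the shares were 57.5% and 58.9% of endothelial-like and 33.2% and 35.2% of microglia-like cells. For oligodendrocyte-like cells they were 1.70% and 2.01%. Summed over the 6 genes, the endothelial-like level was 627 and 684 CPM (ratio 1.09, 1.03 to 1.16) and the microglia-like level 287 and 291 CPM. Within endothelial-like cells the H2-Q genes therefore took a larger part of an H2 sum that itself differed little.

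In microglia-like cells none of the 7 members tested passed the mark, where 16.3% of genes tested did. With each cell weighing the same, H2-Q4 did (1.48), and with cells thinned to equal depth Cd1d1 (1.63) and H2-T22 (1.27) did. H2-Q4 stood at 15.8 and 18.4 CPM (60 and 73 UMIs; ratio 1.17, 0.819 to 1.67). H2-Q6 gave 12 and 8 UMIs (0.640, 0.227 to 1.70) and H2-Q7 12 and 6 UMIs (0.480, 0.148 to 1.38), on few UMIs. The interval of H2-Q6 holds its endothelial-like ratio of 1.62, and that of H2-Q7 ends below its endothelial-like ratio of 1.5. Whether endothelial-like and microglia-like ratios differ was not tested. In the other classes, 1 of 4 members tested passed the mark in astrocyte-like cells (Mr1, beside 22.6% of genes), 0 of 3 in mural-like cells (21.2%) and 0 of 1 in oligodendrocyte-like cells (15.5%). No member had 50 UMIs in ependymal-like cells. Ratios over all kept cells were larger, at 1.70 for H2-Q4, 2.10 for H2-Q6 and 1.84 for H2-Q7. They mix expression with makeup, since endothelial-like cells were 21.8% of Mr1+/+ and 28.1% of Mr1-/- cells.

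**Figure D2:**
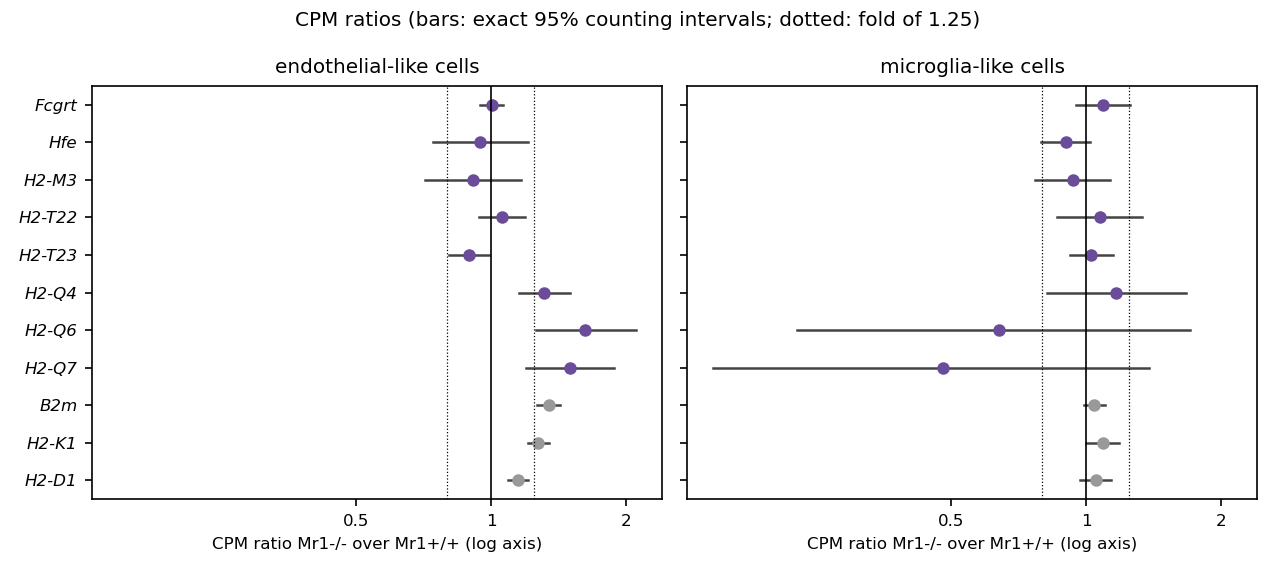
CPM ratios of Mr1-/- over Mr1+/+ (log axis) for 8 members (Mr1 and Cd1d1 are left out) and B2m, H2-K1 and H2-D1 in endothelial-like and microglia-like cells, with exact 95% counting intervals as bars, a line at 1 and dotted lines at the marks for a call. In endothelial-like cells H2-Q4, H2-Q6 and H2-Q7 lie to the right of the upper dotted line, at 1.31, 1.62 and 1.5, and the intervals of Fcgrt, Hfe, H2-M3 and H2-T22 hold 1.

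A cluster of endothelial-like cells led by the interferon-induced genes Ifit3, Ifit1 and Isg15 was larger in the Mr1-/- library. The H2-Q ratios were also taken without this cluster, and its part in them was not tested. At a finer clustering resolution it held 118 of 1307 Mr1+/+ cells (9.03%, 7.53 to 10.7) and 183 of 1435 Mr1-/- cells (12.8%, 11.1 to 14.6). In the endothelial-like cells outside it the ratio was 1.30 for H2-Q4 (1.14 to 1.5), 1.62 for H2-Q6 (1.24 to 2.12) and 1.5 for H2-Q7 (1.19 to 1.89), next to 1.36 for B2m and 1.27 for H2-K1. The H2-T23 ratio outside was 0.93 (0.833 to 1.04) and H2-T22 stood at 1.05. Inside the cluster, H2-T23 stood at 326 and 218 CPM, a ratio of 0.670 (0.504 to 0.888), while the intervals of H2-Q4 (1.42, 0.944 to 2.16), H2-Q6 (1.90, 0.696 to 5.97) and H2-Q7 (1.69, 0.734 to 4.21) held 1.

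Clustering without class I genes among the variable genes (7 were taken out) was run at the coarser resolution of the main clusters. It gave a smaller cluster with the same kind of leading genes, 49 cells (3.75%) and 95 cells (6.62%). With class I genes and doublets both kept, clustering gave an Ifit3-led cluster of 52 and 99 cells, and the main clustering had none led by Ifit3. The parts of resolution and of class I genes in the cluster's size were not tested. Outside the cluster found without class I genes the ratios were 1.28 for H2-Q4, 1.63 for H2-Q6, 1.51 for H2-Q7 and 0.897 for H2-T23. In this version membership was independent of the members, so levels inside and outside can be set side by side. In the Mr1+/+ library the level inside was 2.14 times that outside for H2-T22 (1.53 to 2.92) and 1.43 times for H2-T23 (1.03 to 1.94), and in the Mr1-/- library 1.30 (0.945 to 1.75) and 1.22 times. H2-Q4 was at 0.756 (0.387 to 1.34) and 1.21 times its outside level, H2-Q6 at 0.776 and 0.842 times and H2-Q7 at 0.764 and 0.745 times. The intervals of the H2-Q genes held 1 in both libraries, on 3 to 42 UMIs inside.

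The H2-Q genes differed widely between kinds of endothelial cell, and their direction between libraries was the same in nearly all of them. Finer clustering split the endothelial cells into 7 clusters, counting an unnamed one led by Plvap, the diaphragm protein of fenestrated vessels. H2-Q4 was higher in the Mr1-/- library in 7 of 7 clusters (ratios 1.10 to 2.15), H2-Q6 in 7 of 7 (1.13 to 3.30) and H2-Q7 in 6 of 7, the exception being the Slc26a10-led cluster at 0.883. The counts behind single clusters can be small, as for H2-Q7 in 1 capillary-type cluster with 1 and 9 UMIs. B2m, H2-K1 and H2-D1 were also higher in 7 of 7, whereas H2-T22 was higher in 5 of 7 and H2-T23 in 2 of 7. Of the 8884 genes tested in endothelial-like cells, 1.99% were higher in 7 of 7 clusters. The H2-Q genes had already been called higher in nearly the same cells, so agreement between clusters follows in part from that call. The share among genes called higher is not given. The interval of the ratio lay above 1 in 2 of 7 clusters for H2-Q4, in 3 of 7 for H2-Q6 and in 3 of 7 for H2-Q7. These clusters come from the same 2 libraries and are not replicates.

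The Plvap-led cluster, 30 and 51 cells, had the highest H2-Q4 level, 261 and 562 CPM (ratio 2.15, 1.36 to 3.5). H2-Q6 stood there at 90.4 and 204 CPM (2.26, 1.04 to 5.44), H2-Q7 at 151 and 233 CPM (1.55, 0.815 to 3.08), and H2-T23 at 412 and 598 CPM (1.45, 0.987 to 2.17). An arterial-type cluster led by Gkn3 and Vegfc, with 6 of 6 arterial markers detected, had 181 and 229 CPM of H2-Q4 (1.26, 0.998 to 1.60), 55.8 and 98.0 CPM of H2-Q6 (1.76, 1.18 to 2.65) and 74.8 and 129 CPM of H2-Q7 (1.73, 1.22 to 2.46). A venous-type cluster led by Lrg1 and Vwf, with 5 of 6 venous markers detected, had 133 and 229 CPM of H2-Q4 (1.73, 1.22 to 2.45), 73.1 and 115 CPM of H2-Q6 (1.57, 0.971 to 2.56) and 59.8 and 117 CPM of H2-Q7 (1.96, 1.19 to 3.30). Capillary markers were also present in these clusters, at 2324 CPM beside 1842 CPM of arterial markers in the former and 4537 CPM beside 2287 CPM of venous markers in the latter, so the names say only which markers stood out. A Hmcn1-led cluster was lower, at 80.4 and 110 CPM of H2-Q4 (1.36, 0.958 to 1.95), 5.74 and 18.9 CPM of H2-Q6 (3.30, 1.04 to 13.8) and 17.2 and 21.7 CPM of H2-Q7 (1.26, 0.558 to 2.91). Fcgrt had another order, at 281 and 299 CPM in the Plvap-led, 427 and 369 in the arterial-type and 813 and 823 in the Hmcn1-led cluster.

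Cluster shares differed between the libraries, and their part in the H2-Q ratios was not tested. The arterial-type cluster was 19.0% and 17.3% of these cells, the venous-type 11.4% and 9.22% and the Plvap-led 2.24% and 3.43%. With the clusters weighted as strata, the ratios were 1.34 for H2-Q4, 1.75 for H2-Q6, 1.58 for H2-Q7 and 0.903 for H2-T23. In the Slc26a10-led cluster 2 members were lower in the Mr1-/- library, H2-T23 at 0.769 (0.606 to 0.973) and H2-M3 at 0.439 (0.232 to 0.797).

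**Figure D3:**
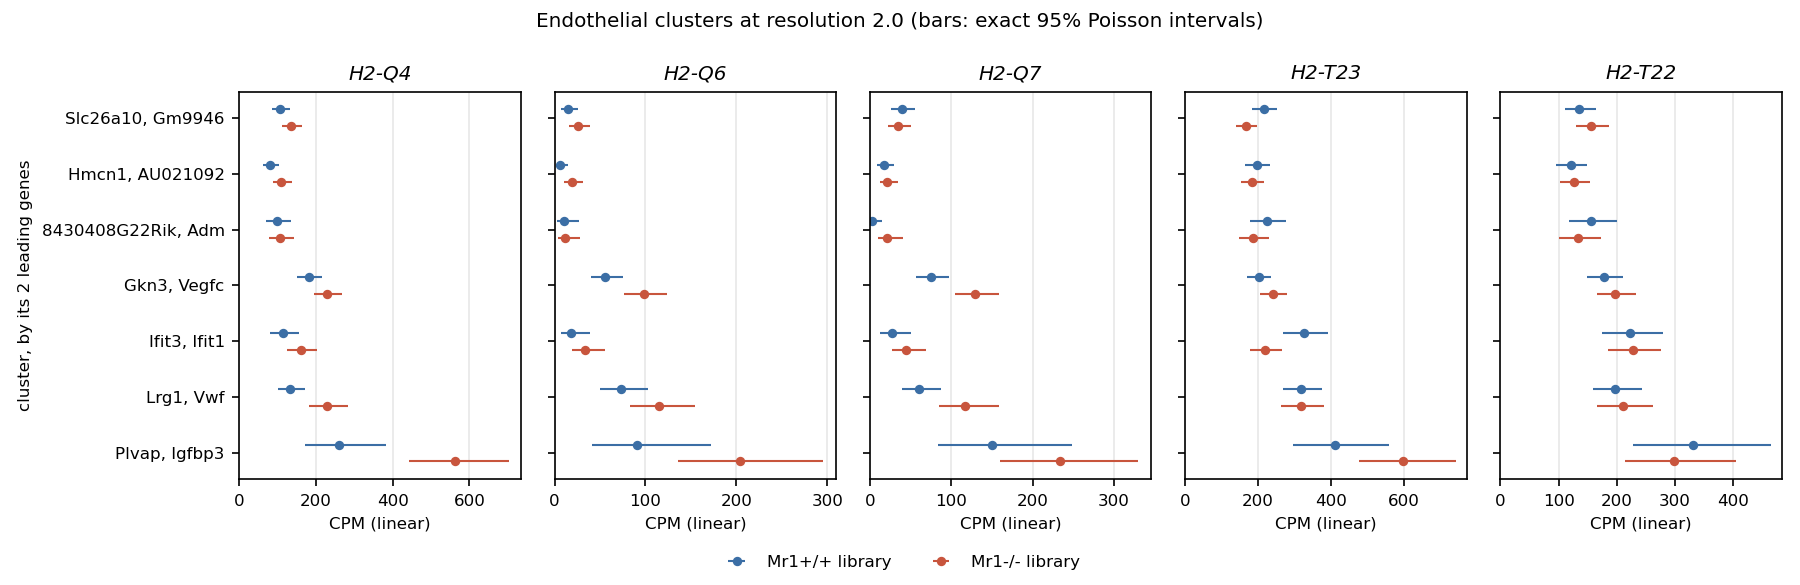
CPM (linear axis) in the 7 endothelial clusters of the finer clustering, named by their 2 leading genes, with a point for each library and exact 95% Poisson intervals as bars. The panels are H2-Q4, H2-Q6, H2-Q7, H2-T23 and H2-T22. The H2-Q genes are highest in the Plvap-led, arterial-type and venous-type clusters. In the H2-Q panels nearly every Mr1-/- point lies to the right of its Mr1+/+ point. The Mr1-/- point lies to the right in 5 of 7 clusters for H2-T22 and in 2 of 7 for H2-T23.

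Of 25 genes of the class I pathway tested in endothelial-like cells, 17 had a ratio above 1, as did 53.8% of all genes tested there, and the list's median log2 ratio was 0.14 against 0.02 for all genes. Called higher were 3 genes, a share near the 11% of all genes tested there: B2m, the shared light chain (1.34, 1.27 to 1.43), the classical heavy chain H2-K1 (1.28, 1.21 to 1.35) and the immunoproteasome subunit Psmb9 (1.44, 1.26 to 1.65). The classical H2-D1 (1.15), Psmb8 (1.23) and the peptide transporter subunit Tap2 (1.24) stood just under the mark, and Rfxap was lowest at 0.803. The 6 H2 members had a median log2 ratio of 0.24. In microglia-like cells 15 of 26 pathway genes were above 1 with a median of 0.01. Genes of the interferon response, from a list of which 23 were tested in endothelial-like cells, were above 1 in 19 (53.8% of all genes were), with a median of 0.15. Of these 23, 6 were called higher, where 11% of all genes were, among them Isg15 (1.26), Gbp2 (1.31) and Ifit3b (1.36). Without the Ifit3-led cluster the medians were 0.10 for the pathway, 0.23 for the H2 members and 0.07 for the interferon response. Marker levels of other cells in the endothelial-like class were 1112 and 759 CPM for oligodendrocytes, 87.6 and 80.4 for microglia, 64.7 and 36.1 for mural cells and 65.9 and 10.7 for erythroid cells, beside 26468 and 26703 for its own markers. Their part in the ratios was not tested.

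Transcripts of the receptors that read these molecules were few. Of 17 receptor and T cell genes, 10 had 0 UMIs in both libraries, among them Trav1 (the invariant MAIT segment), Cd3e, Cd8a, Cd8b1, Klrc1, Klrc2 and Klrb1c. Zbtb16 had the most UMIs of these genes, 395 and 241 over all kept cells. Its ratio was 0.776 (0.573 to 1.05) in endothelial-like and 0.770 (0.587 to 1.003) in oligodendrocyte-like cells. In neuron-like cells it was 0.749 (0.395 to 1.36) and in mural-like cells 1.33 (0.771 to 2.31). Each passed the mark, as did 20%, 15.5%, 29.5% and 21.2% of the genes tested in those classes, and each interval holds 1. Klrd1 (Cd94), the receptor chain that pairs with Nkg2 chains to read H2-T23, was present in microglia-like cells with 58 and 80 UMIs, 15.3 and 20.2 CPM (ratio 1.32, 0.933 to 1.89), while its partner chains Klrc1 and Klrc2 were at 0. The Klrd1 ratio passed the mark, as did 16.3% of genes tested there, and its interval holds 1. Pirb, an inhibitory class I receptor, gave 72 and 72 UMIs in microglia-like cells (ratio 0.960). Trac, the T cell receptor alpha constant gene, gave 34 and 35 UMIs in mural-like cells, 13.7 and 15.8 CPM, and 13 and 6 UMIs in astrocyte-like cells, with 0 in the other classes compared and Cd3e and Cd3g at 0 throughout. Of 25 other class I genes outside the 10 members, 13 had 0 UMIs in both libraries. Cd1d2, H2-T9, H2-T10, H2-Q5, H2-Q9 and H2-Bl were looked for too, but no deposited gene carries these symbols. Mill2, a class I-like gene outside the H2 complex, stood at 28.5 and 39.3 CPM in endothelial-like cells (96 and 136 UMIs, ratio 1.38, 1.05 to 1.81) and at 26.2 and 26.7 CPM in mural-like cells. Its endothelial-like ratio passed the mark, as did 20% of the genes tested there. H2-T24 and Procr, the endothelial protein C receptor, had endothelial-like ratios of 1.11 (0.746 to 1.66) and 1.02 (0.795 to 1.31). In microglia-like cells Procr gave 37 and 22 UMIs, a ratio of 0.571 (0.321 to 0.993). This passed the mark, as did 16.3% of genes tested there.

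The genes whose pattern over classes was most like each member were taken from 8594 candidates by Pearson correlation of log2(CPM + 10). The points were 8 classes of the Mr1+/+ library for Mr1 and 16 class-by-library values for the others, and they share libraries and cells, so the values are descriptions. Mr1 was nearest Acsf2 (0.976), Marc2 (0.965) and Gna13 (0.964), and Cd1d1 nearest Mex3b (0.958). Fcgrt was nearest Extl3 (0.93), Hfe nearest Hacd4 (0.967) and H2-M3 nearest Arhgap27 (0.978). H2-T22 was nearest Ifih1 (0.916) and H2-T23 nearest Tes (0.974). H2-Q4 was nearest Gbp3 (0.954), Itpr3 (0.952) and Acvrl1 (0.951), and H2-Q6 nearest Gbp4 (0.991), Erg (0.986) and Ifi47 (0.986). H2-Q7 was nearest Grrp1 (0.985), Cdkn2b (0.985) and Mecom (0.982).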

How the data were processed

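The deposited values are raw UMI counts per gene and barcode, made by the authors and not normalized. Cell Ranger 5.1.0, STAR and mm10 are named per the submitters' processing notes, while the matrix header, per the file headers, names 3.1.0. No source at hand gives the annotation release or strand setting. The libraries held 6410 and 5347 barcodes, each with at least 501 UMIs, with 23244575 and 18349132 UMIs. They shared 44 barcodes.

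Cells with at least 300 genes and at most 10% mitochondrial UMIs were kept (6327 and 5278). Scrublet (expected rate 0.05) called 335 (5.29%) and 171 (3.24%) doublets, which were removed. Scanpy 1.11.5 and leidenalg 0.10.2 under Python 3.11.15 (2000 variable genes, 30 components, 15 neighbours, seed 7) gave clusters at resolution 1.0, and 2.0 for the finer clusters. Clusters were named from markers. The naming rule was changed once after a first clustering, so that only classes with 3 detected markers compete. Classes of 50 cells in both libraries were compared. Genes with 50 UMIs over both libraries were tested for a ratio 25% higher, or 0.8 or less (a call). Intervals were exact Poisson, Clopper-Pearson and conditional binomial (SciPy 1.17.1), checked on simulated data. They cover counting error only. The members, lists and tests were chosen with earlier results of these data known. Named genes were taken from the members, the lists and the 3 nearest genes by correlation, and not every called list gene or near gene is named. Gene IDs matched GENCODE M21 for 30934 genes. The motif letters were picked after the sequences were read.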

Additional observations from a re-analysis of the deposited data

How the results depend on the processing

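Over the 10 alternatives run, the endothelial-like ratio ranged from 1.30 to 1.39 for H2-Q4, 1.57 to 1.75 for H2-Q6, 1.48 to 1.58 for H2-Q7 and 0.882 to 0.942 for H2-T23. The one called ratio that turned was Cd1d1 in neuroblast-like cells, 1.09 with cells thinned to 1500 UMIs. Ratios that were not called also crossed 1. With thinning these were Hfe in astrocyte-like (0.816) and endothelial-like cells (1.11), H2-M3 in microglia-like (1.12) and H2-T22 in mural-like cells (1.04). H2-T22 in oligodendrocyte-like cells was 0.969 with doublets kept, and the lowest Fcgrt ratios were 0.989 in endothelial-like and 0.99 in mural-like cells. In microglia-like cells, thinning put Cd1d1 at 1.63 and H2-T22 at 1.27, past the mark. The cause was not tested. Counts of members past the fold under other settings follow. The share of all genes past the fold is not given beside them, so they do not set the members against other genes. The number of members past the fold was 1 in endothelial-like cells at a fold of 1.5 and 0 in neuroblast-like cells. With a minimum of 20 UMIs it was 1 in mural-like, 2 in microglia-like and 2 in neuron-like cells, and the median log2 ratios were 0.18 for H2 members in mural-like cells and -0.13 for the class I pathway in neuroblast-like cells. With a minimum of 200 UMIs it was 0 in astrocyte-like, neuron-like and neuroblast-like cells, where fewer genes are tested. With each cell weighing the same it was 1 in microglia-like cells (H2-Q4, 1.48), 1 in oligodendrocyte-like and 0 in neuroblast-like cells. With at most 5% mitochondrial UMIs it was 0 in astrocyte-like cells. With doublets kept it was 1 in mural-like and 2 in neuron-like cells, and with unnamed clusters joined to the nearest class (added after seeing the data) 2 in mural-like cells. Shares of cells with a UMI after thinning, Mr1+/+ then Mr1-/-, were 2.24% for Mr1 in astrocyte-like Mr1+/+ cells, 23.3% and 28.8% for Cd1d1 in neuroblast-like cells, 17.3% and 16.1% for Hfe and 7.85% and 8.57% for H2-M3 in microglia-like cells. In endothelial-like cells they were 62.9% and 62.2% for Fcgrt, 20.8% and 22.5% for H2-T22, 28.6% and 25.8% for H2-T23, 17.1% and 20.1% for H2-Q4, 3.35% and 5.46% for H2-Q6 and 5.21% and 7.88% for H2-Q7. Thinning left out 174 and 154 shallower endothelial-like, 29 and 12 microglia-like, 106 and 24 astrocyte-like and 5 and 2 neuroblast-like cells. Member counts were not run under thinning, which changes the UMI minimum. No paired analysis was possible because each genotype has 1 library, and no replicate could be left out.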

Other observations

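The ependymal-like class held a few cells with much interferon-induced RNA. In the Mr1+/+ library the interferon response list gave 845 UMIs in 59 ependymal-like cells, of which 319 lay in 1 cell and 457 in 5 cells. In the Mr1-/- library it gave 465 UMIs in 72 cells, of which 29 lay in 1 cell and 106 in 5 cells. Ifit3 stood at 106 and 7 UMIs and Isg15 at 83 and 6 UMIs, ratios of 0.0625 (0.0245 to 0.133) and 0.0684 (0.0244 to 0.155). The cells that held most of the H2-T23 UMIs of this class were not matched to these cells.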
